A study of Mus musculus with 6 samples.

Results

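The genes described here encode the proteins of the mitochondrial ribosome and of respiratory complex I, taken as all protein-coding genes of the RefSeq GRCm38 annotation whose symbols begin with Mrpl or Mrps and a number, or with Nduf. There were 127 of them among 21887 protein-coding genes on the chromosomes, 78 in the ribosomal family (49 Mrpl and 29 Mrps) and 49 in the Nduf family. ATAC-seq, which maps open chromatin by where a transposase can cut and tag the DNA, was done on mouse embryonic fibroblast line A (also called C2). Cells of every group carried c-myc as the immortalising gene. There were 3 groups of 2 samples each: Ezh2 -/- cells, Ezh2 -/- cells that carried Ezh2 on the retrovirus pMSCV-Ezh2, and wild-type cells. Ezh2 is the methyltransferase of Polycomb repressive complex 2. All values below come from 1 list of accessible intervals of the Ezh2 -/- cells without the retrovirus. The other 2 groups were not analysed here, so no genotypes are compared. The list gives no value per replicate and no read counts, so the depth is unknown, no replicate error can be given and no test was made. In a pool of cells, a site open in fewer cells and a site less open in each cell cannot be told apart. The intervals on shares given below are exact 95% binomial intervals that cover counting over genes only.

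The mitochondrial ribosome makes the few membrane proteins of the respiratory chain that mitochondrial DNA still encodes. Its proteins are all encoded in the nucleus, made in the cytosol and imported. Mrpl symbols mostly stand for large-subunit proteins and Mrps symbols mostly, but not always, for small-subunit proteins. Complex I, the NADH to ubiquinone oxidoreductase, is assembled from nuclear-encoded Nduf proteins and mitochondrially encoded membrane subunits. NRF1, the ETS factor GABP and YY1 are known regulators of such genes. Factors with Ndufaf symbols help to assemble complex I and are not part of the finished enzyme. Ndufa4 was named as a complex I subunit and is now assigned to complex IV, and the product of Mrps36 is a component of the oxoglutarate dehydrogenase complex.

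Among marker genes that check the cell type, 8 of 10 fibroblast genes had an interval at a gene end (overlapping the 1 kb on either side of it), Vim, Col1a1, Col1a2, Col3a1, Pdgfrb, Twist1, Prrx1 and S100a4, and Pdgfra and Thy1 had none there, although Pdgfra had one within 1 kb of a start site. Of genes of other cell types 0 of 10 had one, among them Ptprc, Epcam, Alb and Pou5f1 (upper bound 30.8%).

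At 3 places members of these families lie head to head, and a single interval there covered the adjoining ends of 2 members. Their sequences are shown because these are the regions that members have in common. The letters below are from RefSeq (GRCm38.p6), 5′ to 3′ on the strand of the first-named gene, and lie between the annotated boundaries of the 2 genes. Capitals mark the letters searched for below (GGGCGG on either strand in the pair Mrpl46 and Mrps11, none in the others).
Mrpl47 and Ndufb5 (chr3:32736756-32737005, the 250 bases next to Mrpl47 of a gap of 301, minus strand): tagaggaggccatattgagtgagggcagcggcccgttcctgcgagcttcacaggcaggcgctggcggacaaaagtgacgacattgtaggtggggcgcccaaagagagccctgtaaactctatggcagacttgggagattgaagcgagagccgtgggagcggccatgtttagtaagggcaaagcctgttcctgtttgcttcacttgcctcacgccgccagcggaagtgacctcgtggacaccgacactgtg
Ndufs6 and Mrpl36 (chr13:73328483-73328502, the whole gap of 20 bases, minus strand): ctgtgcgcctgcgccggcac
Mrpl46 and Mrps11 (chr7:78783090-78783130, the whole gap of 41 bases, minus strand): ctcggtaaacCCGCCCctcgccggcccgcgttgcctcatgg

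The interval shared by Mrpl47, a large-subunit protein gene, and Ndufb5, an accessory subunit of complex I, ran over 1418 bp (32736037 to 32737454 on chromosome 3). Its called region, the stretch of coverage that the authors' peak caller scored, had a total signal (the area under the coverage, in the authors' unit) of 31094 and a maximum signal (its height) of 58. Ndufs6, an accessory subunit of the NADH-oxidising arm, and Mrpl36 shared 2209 bp on chromosome 13 with a total of 19763 and a maximum of 46. The start of Mrpl36 in the promoter table, 73331009, lies inside the gene and outside this interval. Mrpl46 and Mrps11, which encode a large-subunit and a small-subunit protein, shared 1586 bp on chromosome 7 with a total of 16819 and a maximum of 23. The maximum was thus high at the pair on chromosome 3, low at the pair on chromosome 7 and between these on chromosome 13. These 3 were the only pairs of members with a called region in common, so the 102 members with an interval were represented by 99 called regions.

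Both families were accessible at most of their genes. Of the 127 members, 102 had a gene-end interval (80.3%, interval 72.3 to 86.8), where all protein-coding genes had one at 47.4%. The ribosomal family had one at 62 of 78 genes (79.5%, interval 68.8 to 87.8) and the Nduf family at 40 of 49 (81.6%, interval 68.0 to 91.2). The difference of Mrp minus Nduf was -2.15 percentage points, with an interval of -15.4 to 12.8 that covers 0 and allows a sizeable difference in either direction. Grouped by symbol, the ribosomal genes were alike in count, with 39 of 49 Mrpl genes (79.6%) and 23 of 29 Mrps genes (79.3%). Proteins whose number is shared with a bacterial ribosomal protein had an interval at 35 of 44 genes, and those numbered from Mrpl37 or Mrps22 upwards, which have no bacterial counterpart of that name, at 27 of 34. Within the Nduf family, 6 of 7 core subunits, 24 of 32 accessory subunits, 8 of 8 assembly factors, and both Ndufa4 and Ndufa4l2 had one. By the same count 75 of 84 cytosolic ribosomal protein genes (89.3%) and 35 of 51 proteasome Psm genes (68.6%) had an interval.

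**Figure D1:**
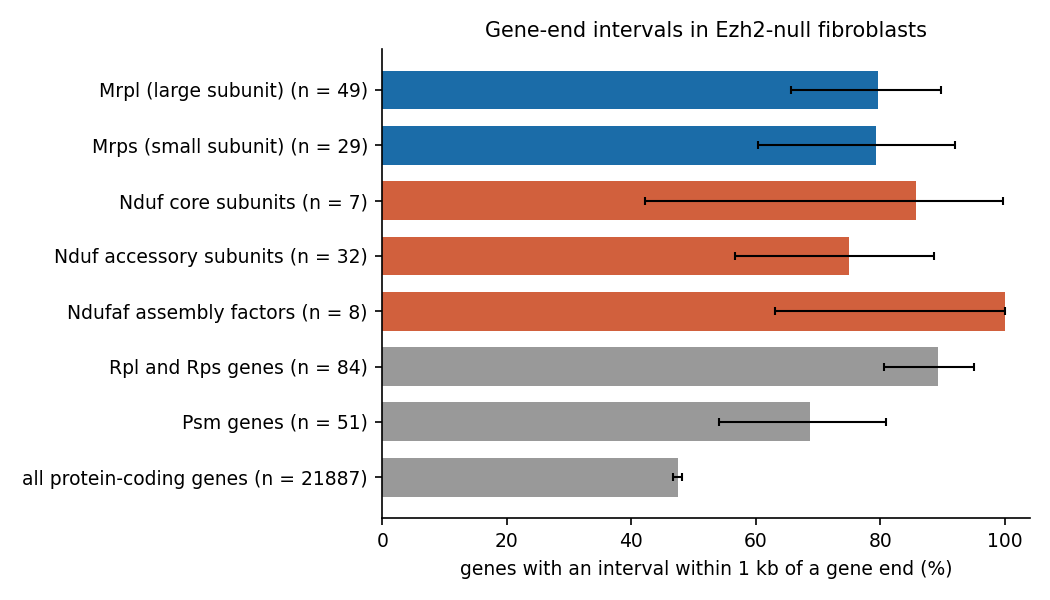
Bars give the percentage of genes with an interval within 1 kb of either gene end, for subgroups of the Mrp (blue) and Nduf (orange) families and for other genes (grey), with exact 95% binomial intervals over genes. Mrpl and Mrps stand at 79.6% and 79.3%, the assembly factors at 100% of 8 genes, and all protein-coding genes at 47.4%.

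Where the strand is known, the intervals stood at the start of the gene. The promoter table gave a start site for 111 members, and 87 of these had an interval within 1 kb of it (78.4%, against 46.9% of protein-coding genes in the table), 53 of 69 Mrp genes and 34 of 42 Nduf genes. These included Mrps23, which had no gene-end interval, and not Mrpl36, which had one. Of the 87 members with a strand and a gene-end interval, 60 had it at the start only, 27 at both ends and 0 at the far end only. Over all genes with both, 71.9% had it at the start only, 21.9% at both ends and 6.18% at the far end only. In 86 of the 87 the start site itself lay inside an interval, Mrpl36 being the exception. This was not counted over all genes, and the 87 were taken because they had a gene-end interval. The point of highest signal lay close to the start. The distance from the start was taken for the 79 members with a start site whose interval held its own maximum. Its median was -37 bp (quartiles -76.8 and 44 bp, negative upstream), and 67 of the maxima lay within 250 bp. It was not computed over all genes. The families matched in this, with medians of -37.5 bp over 48 Mrp genes and -37 bp over 31 Nduf genes. At the 7 members beyond 1000 bp the maximum lay toward or past the far end of the gene (Mrpl52, Mrpl58, Ndufa10, Ndufb6, Ndufb10 and Ndufv2), or the start site was the distant one described above (Mrpl36).

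**Figure D2:**
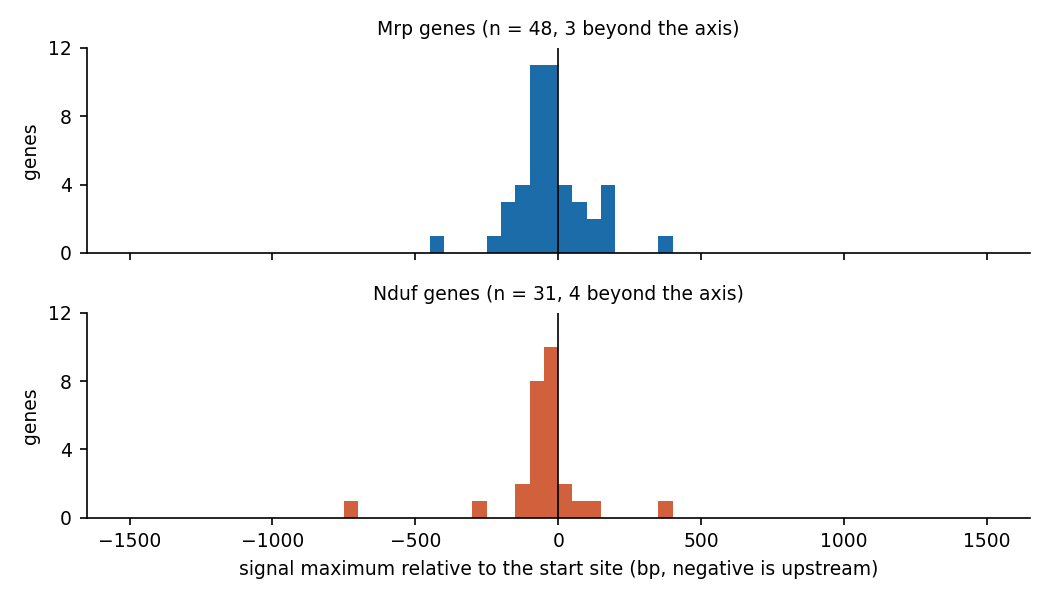
Histograms (bins of 50 bp) give the distance in bp from the start site to the point of highest signal, for 48 Mrp genes (above) and 31 Nduf genes (below) whose interval holds its maximum. Both pile up just upstream of 0, with medians of -37.5 and -37 bp, and 3 Mrp and 4 Nduf genes lie beyond the axis.

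Maximum signal was similar in the 2 families. Its median was 41 at Mrp genes (quartiles 30 and 52, range 17 to 74) and 42.5 at Nduf genes (quartiles 35.75 and 51.25, range 23 to 75), beside 38 over all genes with an interval (quartiles 28 and 49). The quartiles of the families overlapped each other and those of all genes. Total signal had a median of 33224 at Mrp genes and 32201.5 at Nduf genes, beside 39334.5 over all genes, and interval width a median of 2432.5 bp and 2618 bp, beside 2742 bp. The members were thus a little taller and a little narrower at the median than genes with an interval in general. With called regions in 1 piece only, the median maximum was 39 over 49 Mrp genes, 40 over 32 Nduf genes and 37 over all genes, and the median width 2342, 2243.5 and 2612 bp. A maximum of 60 or more was reached by 8 Mrp genes (12.9%) and 5 Nduf genes (12.5%), beside 11.4% of all genes with an interval.

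The tallest regions in the ribosomal family were at Mrpl45 (74), whose product sits near the tunnel exit and the inner membrane, at Mrpl17 (73), at Mrpl58 (72), a peptidyl-tRNA hydrolase that rescues stalled ribosomes, at Mrpl12 (71), a protein of the ribosomal stalk, and at Mrpl41 (68). All 5 belong to the large subunit. The value at Mrpl58 is that of an interval at its far end, which is also at Atp5h, and the interval at its start had a maximum of 37. The tallest small-subunit gene was Mrps18b, with a maximum of 67. By total signal Mrpl12 led (439060), followed by Mrpl38 (290417), Mrps18b (247210), Mrpl10 (205184), which forms the base of the stalk, and Mrps34 (185693). These totals belong to called regions that the list breaks into 3 to 5 pieces, and for Mrpl12, Mrps18b and Mrps34 the point of maximum fell in another piece than the one used. The lowest maxima were at Mrps6 (17), Mrpl27 (21) and Mrpl52 (21), then at Mrpl13, Mrpl46 and Mrps11 (23 each). At Mrpl27 the other gene-end interval, of lower total signal, had a maximum of 43. The 2 groups by symbol differed in median width, 2800 bp at 39 Mrpl genes and 2166 bp at 23 Mrps genes. Their median maxima were 41 and 39. The binomial intervals of these medians, 2209 to 3573 bp and 1647 to 2737 bp, overlap.

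Core subunits had the highest median maximum within complex I. These carry the flavin and the iron-sulphur clusters along which electrons pass to ubiquinone. Ndufs7, which holds the terminal cluster, had a maximum of 74 and a total of 364909, in a region of 3 pieces whose maximum lay outside the interval chosen. Ndufs8 had a maximum of 63, also outside the interval used, and Ndufv1, the flavin-binding subunit that oxidises NADH, one of 61. Ndufv2 had a maximum of 56 and Ndufs1 one of 30. Ndufs3 had no gene-end interval. Over the 6 core genes with an interval the median maximum was 58.5, over 24 accessory subunits 39 and over 8 assembly factors 44.5. Intervals at core genes were also wide, with a median of 5413 bp, beside 2243.5 bp at accessory subunits and 2618 bp at assembly factors. With 6 genes the binomial interval of the core median maximum is its whole range, 30 to 74, which overlaps that of the accessory subunits, 35 to 46.

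Each assembly factor had an interval. Ndufaf8 (chromosome 11, 120098934 to 120100424) had the highest maximum of the family, 75, over 9873 bp with a total of 190266. Ndufaf7, a methyltransferase, had 58, Ndufaf4 had 47, and Ndufaf5, a hydroxylase that modifies Ndufs7, had 45. Ndufaf2 (44), Ndufaf6 (41) and Ndufaf3 (38) followed, and Ndufaf1 (23) was lowest. Among accessory subunits Ndufb10 (62), Ndufb5 (58), Ndufa11 (55) and Ndufv3 (50) were tallest. By total signal Ndufs7 came before Ndufa11 (214982), and Ndufaf8 before Ndufa4l2 (133484), a relative of Ndufa4 known to be induced by hypoxia, and Ndufb10 (130173). The lowest accessory subunits were Ndufa10 (23), X-linked Ndufb11 (26), Ndufc2 (27) and Ndufb2 (30). The interval at the start of Ndufa10 had a maximum of 44 with a lower total, and that at the start of Ndufv2 also 44. Ndufc2, with a total of 15445, stood just above the lowest total in the list, 15316. A further 14 members had totals under 20000, so a member without an interval may lie only a little below the authors' threshold.

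**Figure D3:**
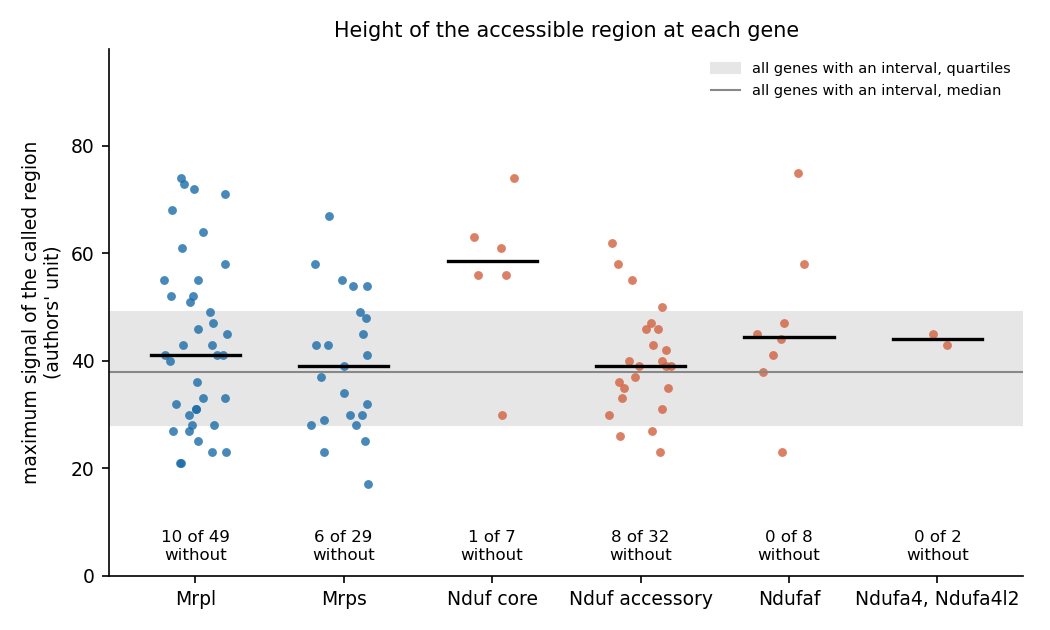
Each point is the maximum signal (authors' unit) of the called region at 1 gene, by subgroup, with black bars for medians and grey for the quartiles and median of all genes with an interval. The 6 core subunits have a median of 58.5, above the grey band of 28 to 49, and the other subgroups have medians inside it, and the numbers at the foot count members without a gene-end interval.

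Wide intervals at these genes also reached neighbouring genes. At 20 members (19.6% of those with an interval) it was 5 kb or wider, near the 15.8% of all genes with an interval. At 19 of these 20 it also lay within 1 kb of the end of another protein-coding gene. Among 31 members with an interval under 2 kb, 19 did so. Over all 102 members 66 (64.7%) shared the interval with another gene's end, beside 37.4% of all genes with an interval. It cannot be told from the list which gene such an interval belongs to. The widest in the ribosomal family were at Mrpl12 (18459 bp, also at Hgs and Slc25a10), Mrpl10 (15660 bp), Mrpl49 (13210 bp, also at Fau, Znhit2, Tm7sf2 and Vps51), Mrpl54 (8540 bp) and Mrpl45 (8328 bp). At Mrpl38 the list has pieces of 8263 and 15513 bp with equal totals, of which the first was used, and the second would rank between Mrpl10 and Mrpl49. With the widest piece at the 6 members with such equal totals, 21 members had 5 kb or more. In the Nduf family wide ones were at Ndufa11 (11402 bp, also at Ranbp3 and Vmac), Ndufa7 (10959 bp, also at Kank3 and the ribosomal gene Rps28), Ndufaf8 (9873 bp) and Ndufa4l2 (9427 bp). The median maximum was 55 where the interval was 5 kb or wider and 35 where it was under 2 kb. These medians, and the sharing with other genes by width, were not computed over all genes. Across the 102 members, which share 1 list and in 3 pairs an interval, the Spearman correlation of width was 0.36 with maximum signal and 0.73 with total signal, which sums over the width.

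**Figure D4:**
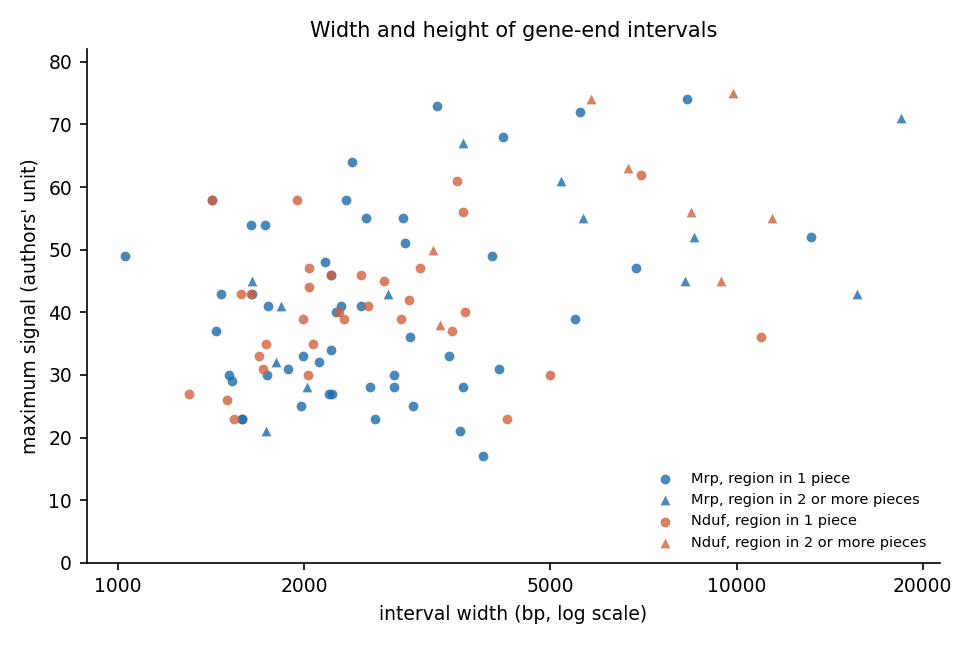
Interval width (bp, log scale) is plotted against maximum signal (authors' unit) for 62 Mrp genes (blue) and 40 Nduf genes (orange), circles for called regions in 1 piece and triangles for those in 2 or more. The families overlap throughout, and the 20 intervals of 5 kb or more have a median maximum of 55.

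The 25 members without a gene-end interval were 16 ribosomal and 9 Nduf genes. In the large subunit they were Mrpl3, Mrpl9, Mrpl16, Mrpl20, Mrpl24, Mrpl33, Mrpl35, Mrpl43, Mrpl44 and Mrpl55. With Mrps symbols they were Mrps18a, Mrps21, Mrps22, Mrps23, Mrps24 and Mrps31. Mrps18a is named for the small subunit but its product is part of the large one. In complex I they were the core subunit gene Ndufs3, the accessory subunit genes Ndufa1, Ndufa3, Ndufa6, Ndufa9, Ndufb3 and Ndufs4, and Ndufb4b and Ndufb4c. These last are short copies of Ndufb4, 471 and 485 bp long, to which reads may be hard to assign. Ndufb4 itself had an interval with a maximum of 31. Among chromosomes with more than 5 members, 17 had the lowest share of such genes, 1 of 14 (Mrps18a). Chromosomes 3 (Mrpl9, Mrpl24 and Mrps21 of 7) and 19 (Mrpl16, Mrpl43 and Ndufb4b of 9) had the highest shares. Of the other protein-coding genes, 56.6% had a gene-end interval on chromosome 17, 46.5% on chromosome 3 and 60.6% on chromosome 19. The member counts are small and their differences were not tested. On the X chromosome Ndufb11 had an interval and Ndufa1 had none, where 11.8% of the other genes had one.

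The next interval lay at a longer median distance from Nduf than from ribosomal genes that had no gene-end interval. Among the 16 ribosomal genes without a gene-end interval, 5 had one within 5 kb, 10 between 5 and 50 kb, and only Mrpl3 beyond, at 316839 bp. Among the 9 Nduf genes 0 had one within 5 kb, 3 between 5 and 50 kb and 6 beyond. The median distance was 11786.5 bp for the ribosomal and 70537 bp for the Nduf genes. The Nduf value is that of Ndufb4b, a short copy of Ndufb4, and the difference between the families was not tested. Closest to the window of 1 kb were, on its inner side, Mrpl22 at 682 bp, Mrpl18 at 531 bp and Mrpl23 at 155 bp from a gene end, and on its outer side Mrpl33 at 2856 bp, Mrpl20 at 3062 bp, Mrps31 at 3152 bp and Mrpl55 at 3287 bp. No member lay between 682 and 2856 bp. At Mrps23 an interval of 1476 bp (total 15840, maximum 22) lay inside the annotated gene, within 1 kb of the start site in the promoter table and 6443 bp from the nearer end of the gene. Of the Nduf genes, Ndufs3 was 11714 bp from an interval at Ptpmt1, Ndufb4c 15287 bp and Ndufa3 23762 bp from one. The 6 farther away were Ndufa6 (61982 bp), Ndufb4b (70537 bp), Ndufb3 (80244 bp), Ndufa9 (89327 bp), Ndufa1 (312367 bp) and Ndufs4 (429217 bp), an accessory subunit whose loss in humans causes Leigh syndrome. Other protein-coding genes within 1 Mb had a gene-end interval in 44.4% of cases around members without one and in 67.3% around members with one (62.7% around all 127). For the Nduf genes these shares were 34.2% and 66.4%, and for the ribosomal genes 48.5% and 67.9%. The part of the neighbourhood in the missing intervals was not tested.

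Within 50 kb of the gene, 120 of 127 members had an interval (94.5%, interval 89.0 to 97.8), where all protein-coding genes had one at 71.0%. The count was 77 of 78 in the ribosomal family (98.7%, interval 93.1 to 99.97) and 43 of 49 in the Nduf family (87.8%, interval 75.2 to 95.4). These binomial intervals overlap, and the difference was not tested. The median number of intervals within 50 kb was 3 in each family and 2 over all genes. With 5 or more intervals there were 28 Mrp genes (35.9%) and 14 Nduf genes (28.6%), beside 23.4% of all genes. High counts were found around Ndufaf8 (15), Mrpl38 and Mrpl58 (13 each), and Mrpl54 and Ndufa11 (12 each). At 19 members, 12 ribosomal and 7 Nduf, the gene's own end intervals were the only ones within 50 kb, a count not made over all genes. Intervals at no end of any protein-coding gene lay within 50 kb of 41 Mrp genes (52.6%) and 23 Nduf genes (46.9%), beside 45.0% of all genes, so away from gene ends the members were close to the background. Members were shorter than other genes, with a median gene length of 7690 bp beside 17169 bp over all genes, so that the span searched around them was smaller, and had a median of 3 other protein-coding genes within 50 kb, as did all genes.

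**Figure D5:**
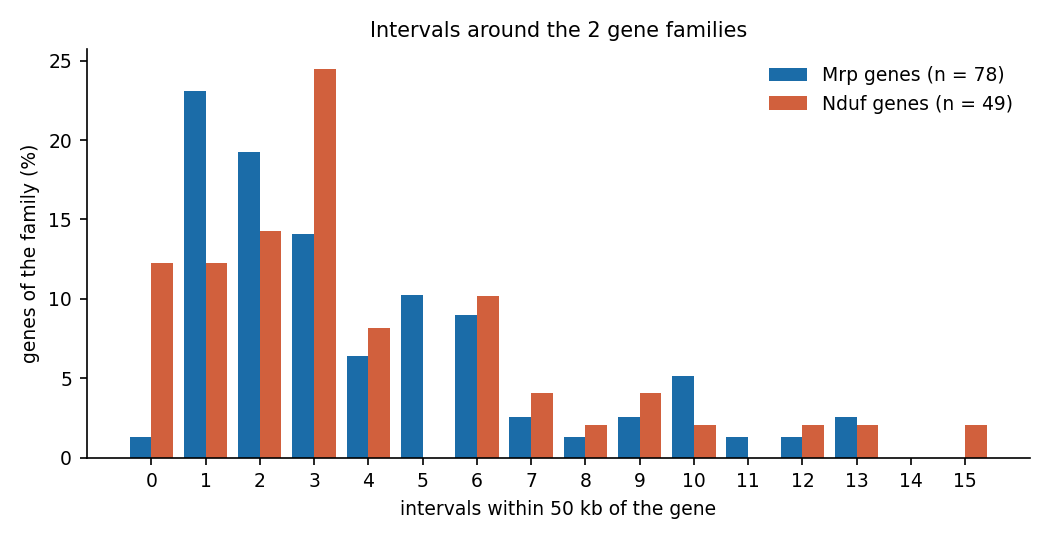
Bars give the percentage of the 78 Mrp genes (blue) and 49 Nduf genes (orange) by the number of intervals within 50 kb of the gene. The count 0 holds 1 Mrp gene, Mrpl3, and 6 Nduf genes, and the highest count is 15 at Ndufaf8.

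The promoters were searched for 6 short strings of letters that known factors bind. The search covered 250 bases before to 50 after each start in RefSeq (119 windows for 111 members, 21263 for all protein-coding genes), on both strands. CCGGAAG, a core of ETS sites, stood in 26 of 75 Mrp windows (34.7%) and 6 of 44 Nduf windows (13.6%), beside 11.6% of all windows and 18.6% of all windows with an interval within 1 kb. AAGATGG, a core of YY1 sites, stood in 13 Mrp windows (17.3%) and 8 Nduf windows (18.2%), beside 6.24% of all. GCGCATGC, from the palindrome that NRF1 binds, stood in 8 Mrp windows (10.7%) and 5 Nduf windows (11.4%), beside 3.52% of all. GGGCGG (SP1) was in 51.3% of member windows beside 46.2% of all, and CCAAT in 44 of 119 windows beside 38.2%. CACGTG (the E-box that Myc and its partner Max bind) was in 8.40% beside 7.84%. In all windows with an interval within 1 kb, the shares were 68.5% for GGGCGG, 10.5% for CACGTG and 38.3% for CCAAT. Windows of members with a gene-end interval had 55.8%, 9.47% and 38.9%. For AAGATGG and GCGCATGC the shares in all windows with an interval were 6.93% and 5.86%. The members exceeded all windows most in the ETS, YY1 and NRF1 letters, and the ETS letters were more frequent in the ribosomal than in the Nduf family. None of these strings contains another, though the ends of CCGGAAG and AAGATGG can overlap. A match is only a match of letters, and the shares were not tested. At least 1 of the ETS, YY1 and NRF1 strings stood in 41 of 95 windows of members with a gene-end interval (43.2%) and in 15 of 24 windows of members without one (62.5%). Over all genes the order was the opposite, with 28.4% of windows with an interval within 1 kb and 11.9% of those without.

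Upstream sequences of a member with a tall region and a member with none within 50 kb, in each family, are shown as examples of where these letters lie. Each has the 200 bases before the start (RefSeq, GRCm38.p6), 5′ to 3′ on the strand of the gene and overlapping no other annotated gene. Capitals mark the strings searched for, on either strand. They are GCGCATGC and GGGCGG at Mrpl17, CCAAT and CCGGAAG at Mrpl3, CCAAT at Ndufs8, and none at Ndufs4. The longer windows searched also held CCGGAAG at Mrpl17 and Ndufs8 and AAGATGG at Ndufs4, outside the bases shown.
Mrpl17 (chr7:105811088-105811287, minus strand, maximum signal 73): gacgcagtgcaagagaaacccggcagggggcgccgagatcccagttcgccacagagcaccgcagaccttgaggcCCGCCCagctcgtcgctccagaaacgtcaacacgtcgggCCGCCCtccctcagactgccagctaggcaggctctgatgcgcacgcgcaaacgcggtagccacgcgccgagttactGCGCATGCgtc
Mrpl3 (chr9:105053068-105053267, plus strand, no interval within 50 kb): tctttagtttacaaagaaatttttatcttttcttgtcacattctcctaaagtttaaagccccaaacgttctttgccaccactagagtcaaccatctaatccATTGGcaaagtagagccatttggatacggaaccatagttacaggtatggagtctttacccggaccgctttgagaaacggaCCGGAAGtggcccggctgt
Ndufs8 (chr19:3912775-3912974, minus strand, maximum signal 63): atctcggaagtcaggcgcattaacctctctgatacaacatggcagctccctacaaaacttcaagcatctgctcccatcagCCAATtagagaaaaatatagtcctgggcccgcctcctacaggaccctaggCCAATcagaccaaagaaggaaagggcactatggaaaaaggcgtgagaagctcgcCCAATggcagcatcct
Ndufs4 (chr13:114388095-114388294, minus strand, no interval within 50 kb): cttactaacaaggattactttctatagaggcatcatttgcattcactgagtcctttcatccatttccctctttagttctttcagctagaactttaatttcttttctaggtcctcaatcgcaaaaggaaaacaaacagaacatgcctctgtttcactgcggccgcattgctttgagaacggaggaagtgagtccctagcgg

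Member promoters were rich in CpG, with a median of 21 per window (21 in Mrp, 20.5 in Nduf) beside 13 in all protein-coding windows and 23 in all with an interval. Windows of members with a gene-end interval had a median of 21, and those of members without one 14.5. Among windows within the members' quartiles of CpG number, 15 to 26, 58 of 65 member windows (89.2%) and 3859 of 5498 other windows (70.2%) had an interval within 1 kb. The gap between members and other genes was thus narrower at like CpG content, 89.2% beside 70.2%, than over all windows, 78.2% beside 46.2%.

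Other genes that serve mitochondria were accessible to a like degree. They were 70 genes in 8 short lists from mitochondrial translation, complex I assembly, complexes II to V and regulators of mitochondrial genes. The lists hold only a part of such genes. Of the 70, 58 (82.9%) had a gene-end interval, beside 47.4% of all genes. All 5 mitoribosome proteins with other names had one, with maxima from 21 at Gadd45gip1 and 22 at Chchd1 to 34 at Dap3 and 43 at Aurkaip1. Of 10 translation factors 7 did, with Mtrf1l (66) and Mrrf (55) tallest, and the elongation factors Gfm1 and Gfm2 and the release factor Mtrf1 did not. Of 7 further complex I assembly factors 6 did, with Foxred1 (66) and Tmem126b (48) tallest and Nubpl without. In complex II, Sdha (40) and Sdhc (39) were tallest and Sdhd had none. In complex III 8 of 9 had one, with Uqcr11 (74) and Uqcrh (59) tallest and Uqcrb without. Complex IV had 6 of 10, with Cox7c (66) and Cox6a1 (54) tallest and Cox5a, Cox6c, Cox7a2 and Cox7b without. By start sites it had 7 of 8, since Cox5a and Cox7a2 had an interval within 1 kb of a start inside the annotated gene. Complex V had 13 of 15, with Atp5h (72) and Atp5d (68) tallest and Atp5g1 and Atp5g3, which encode the ring subunit, without. All 10 genes of regulators had a gene-end interval. By start sites 8 of 9 did, since Ppargc1a had none within 1 kb of its start site. The nuclear receptor gene Esrra (86) and the mitochondrial transcription factor gene Tfb2m (69) were tallest, Gabpa had 50, Yy1 42 and Nrf1 30. Some of these values are not separate: Gabpa has the same interval as Atp5j of complex V, and Atp5h the same as the member Mrpl58.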

How the data were processed

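Per the submitters' processing notes, SEACR, deepTools and Bowtie2 2.2.9 were used with build mm10, without stated order or settings. SEACR calls regions from coverage. Not given in the sources used here are its threshold and control, duplicate removal, any transposase shift and the way replicates were pooled. The deposited list has 6 columns and no header, read in SEACR's order. Its total signal is a score and its maximum a coverage signal, both in the authors' units as deposited, with no stated normalization. Its 21835 intervals repeat the values of 19215 called regions, some in several pieces, so signals were taken per called region and widths per interval.

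Genes came from RefSeq (GRCm38.p6, the assembly behind mm10). An interval counted with 1 bp of overlap. Where a gene had several at its ends, that of highest total signal was used, and the piece of lowest coordinate where totals were equal (6 members). Start sites and strands came from the RefSeq promoter table, which held 111 of the 127 members. The plan assumed no test, and none was made. The members, lists and alternatives were chosen with earlier results of these data known. Of 71 pathway genes 70 matched. Named were, in each family, the members without a gene-end interval, the 5 highest by total, by maximum and by width, the 5 lowest by maximum (more at ties), the 3 with most intervals within 50 kb, the core subunits and pairs that share a region, and in the pathway lists the genes without an interval and the 2 tallest. A gene that this rule names is not reported here by itself and counts only in the totals. Others given as examples were chosen after their values were seen. Alternatives were gene-end windows of 500 or 2500 bp, at least 200 bp of overlap, stricter totals, the nearest interval, only intervals holding their maximum, start sites only, distances of 25 and 100 kb, and subsets of members (subunits only, without X and distal chromosome 11, without Ndufb4b and Ndufb4c), and, chosen after seeing the data, the widest piece at equal totals. Python 3.11.15 with numpy 2.4.6, pandas 2.3.3, scipy 1.17.1, statsmodels 0.14.6 (Newcombe interval of the difference) and matplotlib 3.10.9 was used. On simulated intervals the lookup recovered 200 of 200 planted intervals and 0 of 400 lookups differed from an exhaustive search.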

Additional observations from a re-analysis of the deposited data

How the results depend on the processing

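No paired analysis was possible because the list carries no value per sample, and no replicate could be left out for the same reason. Of 82 alternative values for 13 results, 62 stayed within the binomial interval of the value reported. Shares of genes with a gene-end interval fell where fewer intervals were kept: above the median total signal to 51.3% of Mrp and 46.9% of Nduf genes (32.7% of all genes), and above the upper quartile to 26.9% and 26.5% (19.6% of all genes). The Mrp minus Nduf difference stayed within its interval throughout, from -5.62 points without Ndufb4b and Ndufb4c, a choice made after seeing the data, to 4.34 above the median, with 2.30 for subunits only, so its sign is not fixed. Above the median total signal the median totals were 47606 (Mrp) and 46148 (Nduf) and the median widths 2983.5 and 3617 bp, by construction of the subset. With the widest piece at equal totals, chosen after seeing the data, the median widths were 2492.5 bp (Mrp) and 2618 bp (Nduf). Within 50 kb, the Mrp and Nduf shares were 83.3% and 73.5% without a gene's own end intervals, which was not computed over all genes. They were 52.6% and 46.9% without intervals at any gene end (45.0% of all genes). Above the median total they were 73.1% and 69.4% (54.8% of all genes). Within 100 kb the Nduf share was 95.9%, beside 77.0% of all genes, and the median count 5 in each family. Without intervals at any gene end the median count was 1 for Mrp and 0 for Nduf genes, and above the median total 1 for Nduf genes. These median counts were not computed over all genes. The unknown depth limits every absence: a gene without an interval is one with no region above the authors' threshold.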
